A study of Homo sapiens with 6 samples.

Results

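The regions described here are the 1078 acetylated histone H4 (H4ac) regions on chromosome 20 among the 36034 regions called in the control library, or 2.99% of them. They were chosen by their chromosome alone, but chromosome 20 itself was selected on these data, because its ratios with the hairpin shTIP60-B were low as a whole. Values with shTIP60-B therefore describe the choice and support nothing. Values with the other hairpin, shTIP60-C, were not used to choose the chromosome. Of the 1078 regions, 331 (30.7%) were promoter regions, centred within 1000 bp of an annotated start site, and 747 were distal, against 33.7% promoter regions among all control peaks.

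The cells were H1975, a human lung adenocarcinoma line, and H4ac was measured in them by sequencing immunoprecipitated chromatin. Each cell population carried a Tet-inducible hairpin: a control hairpin (shControl), or the hairpins shTIP60-B or shTIP60-C against TIP60, and all were given 0.5 ug/ml doxycycline for 2 days. There was 1 H4ac library and 1 input library per hairpin, 6 libraries in all, so the design holds no replicate and no difference below has a replicate check. Both deposited comparisons use the same control library, so a chance high or low count in it moves the ratios of both hairpins the same way.

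TIP60, encoded by KAT5, is the catalytic lysine acetyltransferase of the NuA4 complex and acetylates histones H4 and H2A and non-histone proteins such as ATM. H4 acetylation loosens nucleosome packing, is bound by bromodomain proteins, and marks active promoters and enhancers. Chromosome 20 is a small, gene-rich chromosome whose long arm is often gained in epithelial cancers and holds genes such as SRC, AURKA, BCL2L1 and SNAI1.

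The promoter sequences below belong to 5 genes whose promoter region departed from its neighbours in the comparisons described later, taken from the genes with an entry in the sequence set used. LINC00659 was low with both hairpins, LINC01431 and TAF4 were low with shTIP60-B, ZSWIM1 was high with shTIP60-B, and SOGA1, listed as MTCL2, was high with shTIP60-C. All but TAF4 follow the rule for printed promoters, and TAF4 was added after its values were seen because it had the most control reads among these promoters. The windows run from 250 bases before to 50 bases after the start site in RefSeq GRCh38.p14, 5′ to 3′ on the gene's strand. Capitals mark GGGCGG or its reverse complement CCGCCC, the GC box. The 21 genes with such a promoter region were looked up by symbol or gene ID, and 12 were in the table.
LINC00659: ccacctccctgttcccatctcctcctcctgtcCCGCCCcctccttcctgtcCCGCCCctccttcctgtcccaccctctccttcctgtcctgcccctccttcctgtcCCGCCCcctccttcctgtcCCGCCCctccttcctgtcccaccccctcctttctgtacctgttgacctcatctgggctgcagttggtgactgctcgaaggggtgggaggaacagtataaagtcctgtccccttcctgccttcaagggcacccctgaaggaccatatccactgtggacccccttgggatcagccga
LINC01431: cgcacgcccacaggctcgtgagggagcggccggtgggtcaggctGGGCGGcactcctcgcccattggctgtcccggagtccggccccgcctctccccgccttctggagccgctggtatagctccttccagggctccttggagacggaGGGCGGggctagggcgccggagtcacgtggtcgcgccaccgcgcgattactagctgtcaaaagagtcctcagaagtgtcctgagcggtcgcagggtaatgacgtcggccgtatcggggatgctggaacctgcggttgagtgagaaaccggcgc
TAF4: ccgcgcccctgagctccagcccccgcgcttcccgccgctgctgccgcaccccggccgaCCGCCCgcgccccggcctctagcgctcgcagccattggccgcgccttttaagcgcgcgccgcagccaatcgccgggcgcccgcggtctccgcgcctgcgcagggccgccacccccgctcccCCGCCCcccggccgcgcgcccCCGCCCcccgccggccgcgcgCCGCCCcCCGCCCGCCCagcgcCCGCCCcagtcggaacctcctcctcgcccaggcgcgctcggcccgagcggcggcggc
ZSWIM1: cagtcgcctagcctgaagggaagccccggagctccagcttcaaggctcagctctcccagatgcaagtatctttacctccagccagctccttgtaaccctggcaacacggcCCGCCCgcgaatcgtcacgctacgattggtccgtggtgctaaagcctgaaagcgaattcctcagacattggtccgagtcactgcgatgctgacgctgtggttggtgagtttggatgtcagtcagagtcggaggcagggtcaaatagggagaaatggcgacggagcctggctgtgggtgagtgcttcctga
MTCL2: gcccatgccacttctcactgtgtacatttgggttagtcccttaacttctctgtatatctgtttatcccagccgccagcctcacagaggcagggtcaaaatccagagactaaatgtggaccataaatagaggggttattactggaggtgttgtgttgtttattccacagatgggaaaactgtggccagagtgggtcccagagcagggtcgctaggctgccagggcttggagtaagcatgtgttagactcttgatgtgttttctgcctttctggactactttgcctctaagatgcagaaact
In GRCh38.p14 these windows are chr20:62776807-62777106 on the minus strand for LINC00659 and chr20:23358078-23358377 on the minus strand for LINC01431. They are chr20:62065832-62066131 on the minus strand for TAF4, chr20:45880977-45881276 on the plus strand for ZSWIM1 and chr20:36859824-36860123 on the minus strand for MTCL2. The H4ac regions are on the hg19 build, so it was not checked whether a window lies inside its region. SOGA1 was matched to MTCL2 by gene ID. Judged by the shift between builds at other genes of this arm, the MTCL2 start is not the one its region was annotated to. The MTCL2 window therefore describes that RefSeq start and not the SOGA1 region. The GC box occurred 7 times in the TAF4 window, 4 times in the LINC00659 window, 2 times in the LINC01431 window and 1 time in the ZSWIM1 window. It was not found in the MTCL2 window. On either strand it was held by 41.8% of the chromosome 20 promoters of that RefSeq set and 45.0% of all its promoters. GC content was 85.0% in the TAF4 window and 48.0% in the MTCL2 window, which are the extremes of these 5. A match of letters is a description of the window and no evidence of binding.

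Over the 1078 regions there were 113536 control reads, 58813 shTIP60-B reads and 212310 shTIP60-C reads. The median region held 55 control, 31 shTIP60-B and 102.5 shTIP60-C reads, so ratios with shTIP60-B are the least precise. The regions took 3.12% of all control reads in control peaks and 3.15% of the shTIP60-C reads, but 2.07% of the shTIP60-B reads. Their median width was 954 bp, with a range of 374 to 5756 bp. The KAT5 promoter, on another chromosome, had 401 control, 348 shTIP60-B and 863 shTIP60-C reads, and H4ac there does not measure the knockdown. Of the markers looked up, 6 of 7 epithelial genes had a promoter control peak (19 to 282 control reads), as did 0 of 3 leukocyte genes and 1 of 4 endothelial or stromal genes, COL1A1 with 57 control reads.

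With shTIP60-B, H4ac reads on chromosome 20 were low relative to the rest of the genome, and with shTIP60-C they were not. The raw ratio of shTIP60-B to control reads had a median of 0.500 over the chromosome 20 regions, against 0.736 over all control peaks. The raw ratio of shTIP60-C to control reads had a median of 1.80, against 1.77. Because the libraries differ in depth, ratios are given from here on as centred log2 ratios: the log2 of knockdown over control reads minus the median of all 36034 control peaks, so that 0 is the typical region of the genome. A loss or gain shared by the whole genome is not measured on this scale. The ratios use H4ac reads only and were not set against the input reads, so a difference in acetylation and a difference in the amount of chromosome 20 DNA cannot be told apart in them.

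The shTIP60-B ratios of chromosome 20 had a centred median of -0.56, with quartiles of -0.98 and -0.17, and 902 of the 1078 regions (83.7%) lay below 0. With shTIP60-C the centred median was 0.02, with quartiles of -0.23 and 0.29, and 512 regions (47.5%) lay below 0. The chromosome was thus low across most of its regions with shTIP60-B and split about evenly around the genome's median with shTIP60-C. With shTIP60-B the medians of the 22 other chromosomes ran from -0.35 on chromosome 16 to 0.31 on chromosome 10. With shTIP60-C they ran from -0.07 on chromosome 4 to 0.10 on chromosome 9, and chromosome 20 lay inside that range.

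**Figure D1:**
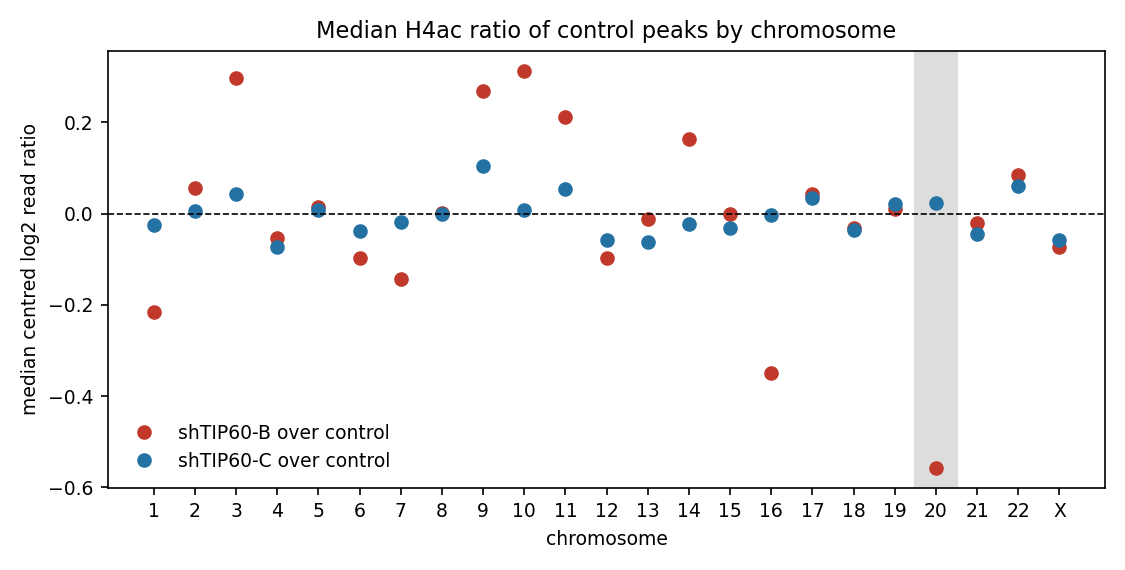
Median centred log2 H4ac read ratio (vertical axis) of the control peaks on each chromosome (horizontal axis), for shTIP60-B over control in red and shTIP60-C over control in blue, 1 library each; 0 is the median of all control peaks and the grey band marks chromosome 20. Chromosome 20 is the lowest red point at -0.56, while its blue point is at 0.02 among the others.

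The knockdown libraries can also be set against each other without the control library, although this ratio still contains the shTIP60-B library on which the chromosome was chosen. The ratio of shTIP60-B to shTIP60-C reads had a centred median of -0.59 on chromosome 20, with quartiles of -0.98 and -0.23. The medians of the 22 other chromosomes ran from -0.34 on chromosome 16 to 0.29 on chromosome 10.

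The level with shTIP60-B was low at every level of signal. With control peaks split into 4 classes of similar size by control reads, the chromosome 20 median minus that of the other chromosomes was -0.56 in the weakest class (13 to 27 control reads) and -0.59 in the strongest (116 to 1121). With shTIP60-C these differences were -0.03 and 0.02. The spread among regions narrowed with signal: the interquartile range of the shTIP60-B ratio on chromosome 20 was 1.28 in the weakest class and 0.55 in the strongest.

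The authors' peak lists held the same split, but they come from the same libraries. The shTIP60-B classes therefore follow from the choice of chromosome, and nothing is read from them. With shTIP60-B, 465 of the 1078 regions (43.1%) were classed as control-only, against 31.5% of all control peaks, and with shTIP60-C 191 (17.7%) were, against 20.1%. Peaks called in the knockdown libraries showed the reverse: of 680 shTIP60-B peaks on chromosome 20, 43 (6.32%) were classed as knockdown-only, against 11.7% over the genome. Of 944 shTIP60-C peaks, 111 (11.8%) were, against 11.1%.

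By the authors' deposited table, with a rescaled ratio of at least 2-fold and a deposited p of at most 1e-05 that compares 2 libraries, 142 regions (13.2%) were lower with shTIP60-B, against 3.98% of all control peaks. By that rule 0 were higher with shTIP60-B, against 0.949%. The choice of chromosome fixes this pair, so nothing is read from it. With shTIP60-C, 0 regions were lower, against 0.0666% of all control peaks, and 1 was higher (0.0928%), against 0.0583%; it lay in the last intron of STK4 and is described below.

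Along the chromosome, in 13 windows of 5 Mb, the shTIP60-B ratio was low from end to end. All 13 window medians were negative, between -0.74 (15 to 20 Mb) and -0.41 (10 to 15 Mb). With shTIP60-C the window medians lay between -0.17 (25 to 30 Mb) and 0.15 (60 Mb to the end), and 6 of 13 were negative. No window of chromosome 20 with shTIP60-B reached the genome's median. Elsewhere in the genome 26 of 490 windows with at least 20 regions (5.31%) lay at or below -0.41 with shTIP60-B; 11 of them were on chromosome 1, 6 on chromosome 16 and 5 on chromosome 7.

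**Figure D2:**
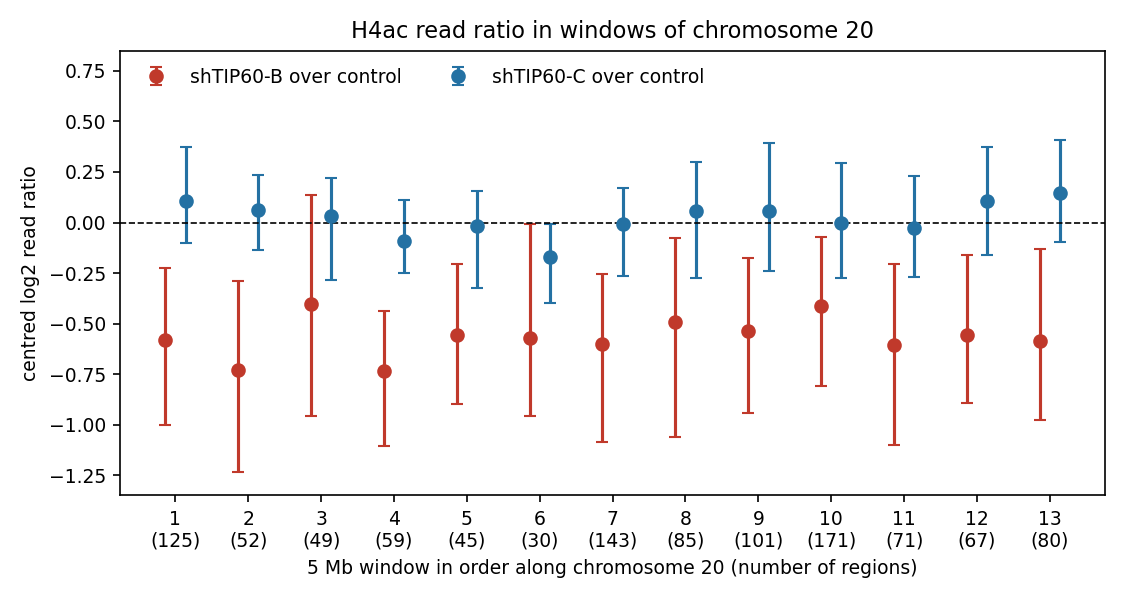
Centred log2 H4ac read ratio (vertical axis) in the 13 consecutive 5 Mb windows of chromosome 20 (horizontal axis, with the number of regions in parentheses); points are medians and bars the quartiles over regions, which are not replicates. All 13 shTIP60-B medians (red) lie below 0, between -0.74 and -0.41, and the shTIP60-C medians (blue) lie between -0.17 and 0.15.

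The stretches on either side of the centromere were alike with shTIP60-B: the median was -0.62 over 330 regions up to 25 Mb, -0.57 over 30 regions from 25 to 30 Mb, and -0.54 over 718 regions from 30 Mb on. With shTIP60-C these medians were 0.02, -0.17 and 0.03. On a finer scale, 40 windows of 1 Mb held at least 10 regions; 40 of 40 had a negative median with shTIP60-B and 16 of 40 with shTIP60-C. The window with most regions, 45 to 50 Mb with 171, had medians of -0.41 and -0.00 with shTIP60-B and shTIP60-C. It holds NCOA3, SNAI1, SULF2 and PTPN1.

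None of the strongest control peaks of the 13 windows departed 2-fold from its window median with either hairpin. The SNX5 promoter, of a sorting nexin, was the strongest region of the chromosome (chr20:17948272-17951196) with 1121 control, 457 shTIP60-B and 2111 shTIP60-C reads. Its centred ratios were -0.85 with shTIP60-B and 0.09 with shTIP60-C. The promoter region of ZNF335, a zinc finger protein, had 887, 359 and 1771 reads, for ratios of -0.86 and 0.17. All 3 libraries gave high counts here, and only the shTIP60-B count was low relative to the genome.

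The region with most control reads between 30 and 35 Mb lies in exon 2 of BCL2L1, which encodes the anti-apoptotic protein BCL-XL, next to the start of the noncoding RNA ABALON. It had 917 control, 300 shTIP60-B and 1291 shTIP60-C reads, for centred ratios of -1.17 and -0.33, and so was below the genome's median with each hairpin. The distal region nearest to TFAP2C, which encodes a transcription factor, had 598, 198 and 1142 reads, for ratios of -1.15 and 0.11. The promoter of JAG1, a Notch ligand, had 455, 185 and 753 reads, for ratios of -0.86 and -0.10.

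At the other end, the promoter of BLCAP, in an imprinted locus, had 509 control, 374 shTIP60-B and 1116 shTIP60-C reads, for ratios of -0.00 and 0.31. A distal region nearest to TMEM230 had 517, 352 and 1201 reads, for ratios of -0.11 and 0.39. These are strong regions that stood at the genome's median, and above their own windows, with shTIP60-B. The remaining window leaders (STK35, XRN2, LOC100131496, the NFATC2-nearest region in ATP9A, and GMEB2, besides an antisense RNA start that is not named) had shTIP60-B ratios from -0.90 to -0.40.

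Promoter and distal regions had the same median with shTIP60-B, but not the same share below 0. The median was -0.56 at the 331 promoter regions and -0.56 at the 747 distal regions. Both are a raw ratio of 0.500, or 1 shTIP60-B read per 2 control reads. Below 0 were 89.1% of promoter and 81.3% of distal regions. On the other chromosomes the medians were 0.04 and 0.002, with 47.1% and 49.9% below 0. Distal regions were more spread out, with quartiles of -1.07 and -0.14 against -0.84 and -0.22 at promoters. Distal regions also held fewer reads, as given below, and the spread was not compared at equal reads. With shTIP60-C the median was 0.09 at promoters and -0.005 at distal regions, a difference of 0.10, where the other chromosomes had 0.055 and -0.038. Chromosome 20 promoters thus stood above distal regions with shTIP60-C by about as much as promoters elsewhere, and no replicate measures the error of either difference. Among peaks that the authors classed as common the promoter minus distal difference was -0.20 with shTIP60-B and 0.01 with shTIP60-C.

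**Figure D3:**
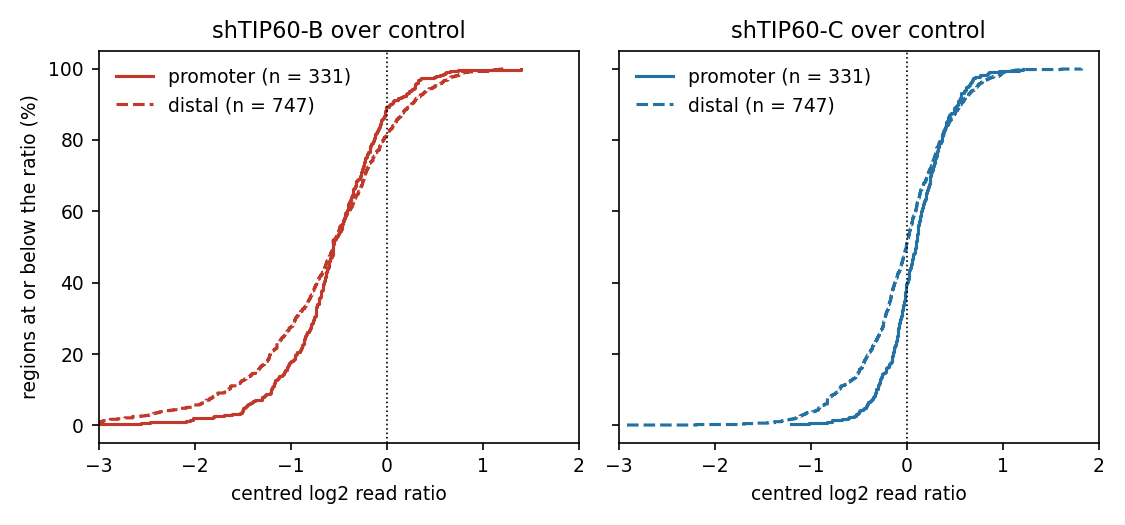
Cumulative share of chromosome 20 regions (vertical axis, percent) at or below a given centred log2 H4ac read ratio (horizontal axis, drawn from -3 to 2), for 331 promoter (solid) and 747 distal (dashed) regions with shTIP60-B (left) and shTIP60-C (right). The shTIP60-B curves cross near their shared median of -0.56, and with shTIP60-C the promoter curve lies to the right of the distal one around medians of 0.09 and -0.005.

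Promoter and distal medians kept different orders in different windows. In the first 5 Mb the shTIP60-B median was -0.42 at 49 promoters and -0.66 at distal regions, and from 10 to 15 Mb it was -0.69 at 7 promoters and -0.38 at distal regions. By annotation, the 133 regions in SINE repeats had a shTIP60-B median of -0.74 and the 191 introns outside repeats -0.42, with shTIP60-C medians of -0.03 and -0.03. Over all control peaks SINE regions had -0.01 and introns -0.004 with shTIP60-B. Repeat classes on chromosome 20 varied: the shTIP60-B median was -0.58 in 69 LINE, -0.59 in 64 LTR and -0.07 in 15 DNA repeat regions. Smaller classes are not given, and the classes were not compared at equal reads, so nothing is read from the SINE value.

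To find regions that stand apart from their own neighbourhood, the median log2 ratio of each region's 5 Mb window was subtracted; the result is called its departure. A region was counted as below or above its neighbourhood when it departed at least 2-fold and the 95% Clopper-Pearson counting interval of its ratio, which covers counting error only, left out the window median. On this scale the low level of the whole chromosome is taken out. The middle of the distribution was as wide as elsewhere: departure quartiles were -0.43 and 0.38 with shTIP60-B (-0.43 and 0.37 on the other chromosomes) and -0.25 and 0.25 with shTIP60-C (-0.28 and 0.26).

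With shTIP60-B, 65 regions (6.03%) were below their neighbourhood, against 7.65% of the 35054 control peaks in windows with at least 20 regions, and 50 (4.64%) were above, against 4.01%. With shTIP60-C, 32 (2.97%) were below, against 3.63%, and 7 (0.649%) were above, against 0.901%. All 4 shares are near the background, so chromosome 20 was not set apart by the number of regions that departed. Between the knockdown libraries, 52 (4.82%) were below with shTIP60-B relative to shTIP60-C, against 5.99%, and 46 (4.27%) were above, against 4%. The regions that departed were weak ones: their median control count was 40 below and 28.5 above with shTIP60-B, against 60 for the rest, and 25 and 19 against 57 with shTIP60-C.

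For shTIP60-B, the members nearest to the threshold had departures of -1.03 (inside) and -0.99 (outside) below, and of 1.00 and 0.98 above. For shTIP60-C these were -1.01 and -0.999 below, and 1.11 and 0.99 above. A further 33 regions lay more than 2-fold below with shTIP60-B but had a counting interval that held the window median.

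**Figure D4:**
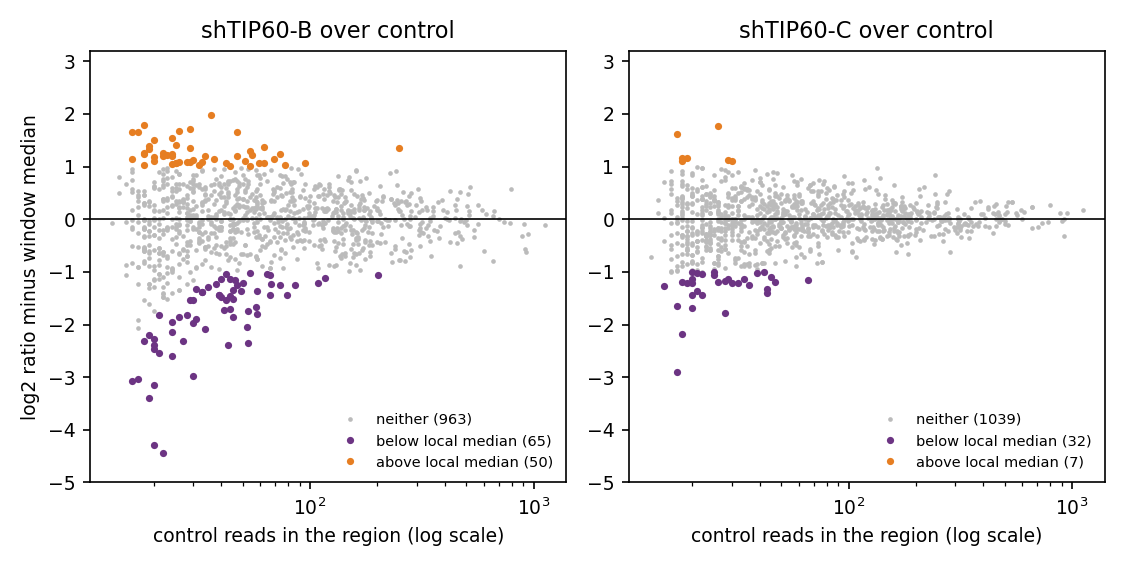
Departure of each of the 1078 regions from its 5 Mb window median (log2, vertical axis) against its control reads (horizontal axis, log scale) for shTIP60-B (left) and shTIP60-C (right); purple points are below and orange points above the neighbourhood by the 2-fold and counting interval rule. With shTIP60-B 65 points are purple and 50 orange, with shTIP60-C 32 and 7, most of them at low control counts; the 2 lowest points on the left are regions with 0 shTIP60-B reads, drawn with 0.5 read.

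Departing regions were counted separately at promoters and at distal regions. With shTIP60-B 10 promoter regions (3.02%, against 3.68% of promoter regions in all control peaks) and 55 distal regions (7.36%, against 9.67%) were below. Above were 9 promoter (2.72%, against 2.58%) and 41 distal regions (5.49%, against 4.74%). With shTIP60-C 2 promoter (0.604%, against 1.14%) and 30 distal regions (4.02%, against 4.90%) were below, and 2 promoter (0.604%, against 0.796%) and 5 distal regions (0.669%, against 0.955%) were above. With each hairpin and in each direction, distal regions departed at a higher share than promoter regions, on chromosome 20 and over the genome. Above with shTIP60-C, the chromosome 20 shares were close and rest on 2 and 5 regions. Distal regions were also weaker: among those not departing with shTIP60-B, median control reads were 118 at promoters and 47 at distal regions. The shares were not compared at equal reads. Among the 298 distal regions in repeats 19 (6.38%) were below with shTIP60-C, against 5.58% of such regions over all control peaks, and 11 of the 449 other distal regions (2.45%) were, against 4.28%. With shTIP60-B these shares were 7.72% (10.6% over all) and 7.13% (8.69%). Median control reads were 36 in the repeat regions and 50 in the others.

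The lowest departures with shTIP60-B were at regions of few reads. A region in intron 1 of ADRA1D, the alpha-1D adrenergic receptor (chr20:4225155-4225675), had 20 control, 0 shTIP60-B and 19 shTIP60-C reads. With the floor of 3 counts for the shTIP60-B library it was at least 3.27-fold lower than its window. With shTIP60-C its departure was -1.01, so it was counted as below with each hairpin.

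Next came regions with 1 read in the shTIP60-B library. A region nearest to LINC01271 (chr20:48955537-48956016) had 19, 1 and 39 reads. A region in intron 6 of KAT14, an acetyltransferase of the ATAC complex (chr20:18144765-18145346), had 20, 1 and 17. For shTIP60-B their departures were -3.39 and -3.14. For shTIP60-C they were 0.21 and -0.97, so the first was near its window and the other sat lower without being counted as below.

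Among the 10 promoters below their neighbourhood with shTIP60-B were those of TAF4 and CHD6. The promoter of TAF4, a subunit of the general factor TFIID (chr20:60641012-60642004), had 109 control, 23 shTIP60-B and 167 shTIP60-C reads, and departures of -1.22 and -0.36. The promoter of CHD6, a chromodomain helicase (chr20:40246573-40247186), had 45, 8 and 57 reads, and departures of -1.51 and -0.54. In both the shTIP60-B count was the low one, and with shTIP60-C neither was counted as below.

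The promoter of NELFCD, a subunit of the negative elongation factor that holds RNA polymerase II near start sites (chr20:57555609-57556242), had 44, 10 and 71 reads, and departures of -1.14 and -0.24. The LINC01431 promoter (chr20:23337872-23338811), whose sequence is given above, had 44, 8 and 77 reads, and departures of -1.46 and 0.00. The ARFGAP1 promoter, of a GTPase activator in Golgi transport (chr20:61903968-61904935), had 54, 13 and 93 reads, and departures of -1.03 and -0.19. All 3 lay near their window with shTIP60-C.

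The shared start of PCNA, the replication clamp, and CDS2, a phospholipid enzyme, held a pair of adjacent regions that differed. The region annotated to the PCNA start and nearest to CDS2 (chr20:5107402-5108300) had 58 control, 10 shTIP60-B and 102 shTIP60-C reads, and departures of -1.37 and -0.07. The region next to it, nearest to PCNA (chr20:5106521-5107242), had 36, 25 and 69 reads, and departures of 0.64 and 0.05. With shTIP60-C both were close to their window, and with shTIP60-B they lay on opposite sides of it. The shTIP60-B counting interval of the region nearest to PCNA held the window median, so only the region nearest to CDS2 was counted as departing.

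Above their neighbourhood with shTIP60-B, the highest region was at the start of SLC23A2, a vitamin C transporter (chr20:4981129-4982143, intron 1). It had 36 control, 70 shTIP60-B and 101 shTIP60-C reads, and departures of 1.99 and 0.56. A region in intron 3 of GSS, glutathione synthetase (chr20:33531690-33532075), had 18, 30 and 60 reads, and departures of 1.78 and 0.92. A region nearest to SULF2, a heparan sulfate sulfatase (chr20:46450865-46451392), had 16, 28 and 42 reads, and departures of 1.66 and 0.57. In each the raw shTIP60-B count exceeded the control count, on a chromosome where the median region had 0.500 shTIP60-B reads per control read.

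The region with most reads among those above was in NFATC2, a calcium-regulated transcription factor of the immune system (chr20:50148723-50150837), with 249 control, 307 shTIP60-B and 528 shTIP60-C reads. Its departures were 1.35 and 0.28, and it was named after its values were seen. A weaker region beside it (chr20:50147908-50148522) had 20, 22 and 48 reads, and departures of 1.19 and 0.46. They lie 9478 and 11043 bp from the start site, while the region nearest to the NFATC2 start (chr20:50158603-50159091) had 19, 9 and 22 reads and a shTIP60-B departure of -0.03.

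SNAI1, a repressor of epithelial genes, had its promoter and an upstream region above the neighbourhood with shTIP60-B. The promoter (chr20:48598484-48599429) had 77 control, 87 shTIP60-B and 218 shTIP60-C reads, and departures of 1.03 and 0.68. The upstream region (chr20:48595354-48596350) had 59, 68 and 164 reads, and departures of 1.06 and 0.65. The 2 lie near each other and share a neighbourhood, so they are not separate evidence.

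The other promoters above with shTIP60-B had smaller departures than SLC23A2. The promoter of FAM83D, a spindle protein (chr20:37554750-37555899), had 73, 90 and 182 reads, and departures of 1.23 and 0.43. The promoter region of KIZ, a centrosomal protein (chr20:21106425-21107351), had 51, 55 and 137 reads, and departures of 1.11 and 0.62. The ZSWIM1 promoter region (chr20:44509850-44510466), whose sequence is given above, had 24, 28 and 55 reads, and departures of 1.20 and 0.31. The shTIP60-B departures of the other promoters counted as above (STK35, LPIN3, KCNK15 and PRPF6) lay between 1.08 and 1.15, with 16 to 28 control reads.

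With shTIP60-C, which did not choose the chromosome, the lowest region was in intron 2 of LOC149950 (NOL4L-DT), in an endogenous retrovirus (chr20:31194120-31194554), with 17 control, 1 shTIP60-B and 4 shTIP60-C reads. Its departures were -2.91 with shTIP60-C and -3.04 with shTIP60-B. A region upstream of NCOA3, a steroid receptor coactivator (chr20:46128618-46129158, in an AluSp repeat), had 18, 2 and 7 reads, and departures of -2.19 and -2.32 with shTIP60-C and shTIP60-B. A region in intron 5 of ZNF341 (chr20:32341816-32342371) had 20, 2 and 13 reads, and departures of -1.44 and -2.28. These were low with each hairpin, which share the control count.

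A region in intron 1 of EYA2, a phosphatase and coactivator (chr20:45561171-45561737), had 20 control, 5 shTIP60-B and 11 shTIP60-C reads, and departures of -1.69 with shTIP60-C and -1.15 with shTIP60-B. A distal region nearest to CHD6 in an LTR5_Hs repeat (chr20:40599568-40600234) had 22, 4 and 15 reads, and departures of -1.44 and -1.48. A distal region nearest to JPH2, a junctional membrane protein of muscle (chr20:42709476-42709980), had 17, 11 and 10 reads, and departures of -1.65 and 0.35. The first 2 were low in both knockdown libraries, although with shTIP60-B their counting intervals held the window median, and the JPH2 region was counted as below with shTIP60-C and lay slightly above its window with shTIP60-B.

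Among promoters, LINC00659 and LINC00261 were below with shTIP60-C. The LINC00659 region (chr20:61407592-61408408) had 66 control, 12 shTIP60-B and 58 shTIP60-C reads, and departures of -1.16 with shTIP60-C and -1.43 with shTIP60-B. The LINC00261 region (chr20:22558590-22559291) had 26, 12 and 20 reads, and departures of -1.19 and -0.12. Both are noncoding RNA genes, and LINC00659 had the most control reads of the regions counted as below with shTIP60-C.

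Other regions below with each hairpin, set side by side, were distal. The ADRA1D region, given above, was one of them, at -1.01 with shTIP60-C. The region in intron 1 of FAM83D in a SINE (chr20:37558018-37558690) had 30 control, 2 shTIP60-B and 24 shTIP60-C reads, and departures of -2.97 with shTIP60-B and -1.21 with shTIP60-C, while the FAM83D promoter was above with shTIP60-B. A region nearest to SSTR4 (chr20:22817132-22818037) had 34, 4 and 27 reads, and departures of -2.09 and -1.14. Regions nearest to BTBD3 (39, 8 and 35 reads) and TCFL5 (42, 10 and 41 reads) had departures of -1.44 and -1.01, and of -1.04 and -1.01. Since a high control count lowers both ratios, these values are no check of each other.

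The highest region with shTIP60-C lay in intron 10 of STK4, a Hippo pathway kinase, and is nearest to the start of KCNS1 (chr20:43664461-43665024). It had 26 control, 42 shTIP60-B and 163 shTIP60-C reads, and departures of 1.76 with shTIP60-C and 1.67 with shTIP60-B; the deposited p with shTIP60-C was 2.19e-08 in the authors' deposited table. A distal region nearest to BPIFB4 (chr20:31707639-31708306) had 29, 46 and 111 reads, and departures of 1.12 and 1.71. A distal region nearest to LOC105372672 (chr20:52356577-52357113) had 19, 23 and 74 reads, and departures of 1.16 and 1.33. These 3 were above with each hairpin, with the control count shared.

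Regions above with shTIP60-C and not counted as above with shTIP60-B included a pair of promoters. The promoter of SOGA1, a microtubule-associated protein (chr20:35492309-35492856), had 18 control, 13 shTIP60-B and 74 shTIP60-C reads, and departures of 1.15 with shTIP60-C and 0.46 with shTIP60-B. The promoter of ARHGAP40 (chr20:37230115-37231018), of a family of GTPase activators, had 30, 28 and 120 reads, and departures of 1.11 and 0.83. A region upstream of KCNG1 in an AluSx1 repeat (chr20:49650530-49651104) had 17, 5 and 92 reads, and departures of 1.61 and -0.91, on opposite sides of its window.

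Set directly against each other, without the control library, the knockdown libraries differed widely at LINC01271 and ADRA1D, given above, where shTIP60-B had 1 and 0 reads. The ADRA1D region was also counted as below with shTIP60-C. The knockdown libraries also differed at a region nearest to FITM2, a lipid droplet protein (chr20:42907948-42908637), with 4 shTIP60-B and 90 shTIP60-C reads. Its departure was -2.72 for shTIP60-B over shTIP60-C. In the other direction a region nearest to FAM110A (chr20:799195-799683) had 21 shTIP60-B and 21 shTIP60-C reads, for 1.92, and a region in intron 1 of NCOA3 (chr20:46141836-46142370) had 18 and 16, for 1.89. A region in intron 1 of CDS2 (chr20:5149228-5149853) had 31 and 38, for 1.80. Equal counts in these libraries are a high ratio because the typical chromosome 20 region had 0.278 shTIP60-B reads per shTIP60-C read.

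Genes of chromosome 20 were also grouped by function in 11 lists with 129 genes, of which 90 had a promoter control peak; the lists were chosen with earlier results of these data known. The 90 genes had median centred ratios of -0.55 with shTIP60-B and 0.12 with shTIP60-C. All 299 chromosome 20 genes with a promoter control peak had -0.56 and 0.10. Of the 90, 6 departed from their neighbourhood with shTIP60-B and 0 with shTIP60-C, against 15 and 4 of the 299. Taken over all lists, the medians were close to those of the chromosome, while single lists differed, as given next. Values in this and the next paragraphs are centred ratios with the 95% counting interval where one is given.

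**Figure D5:**
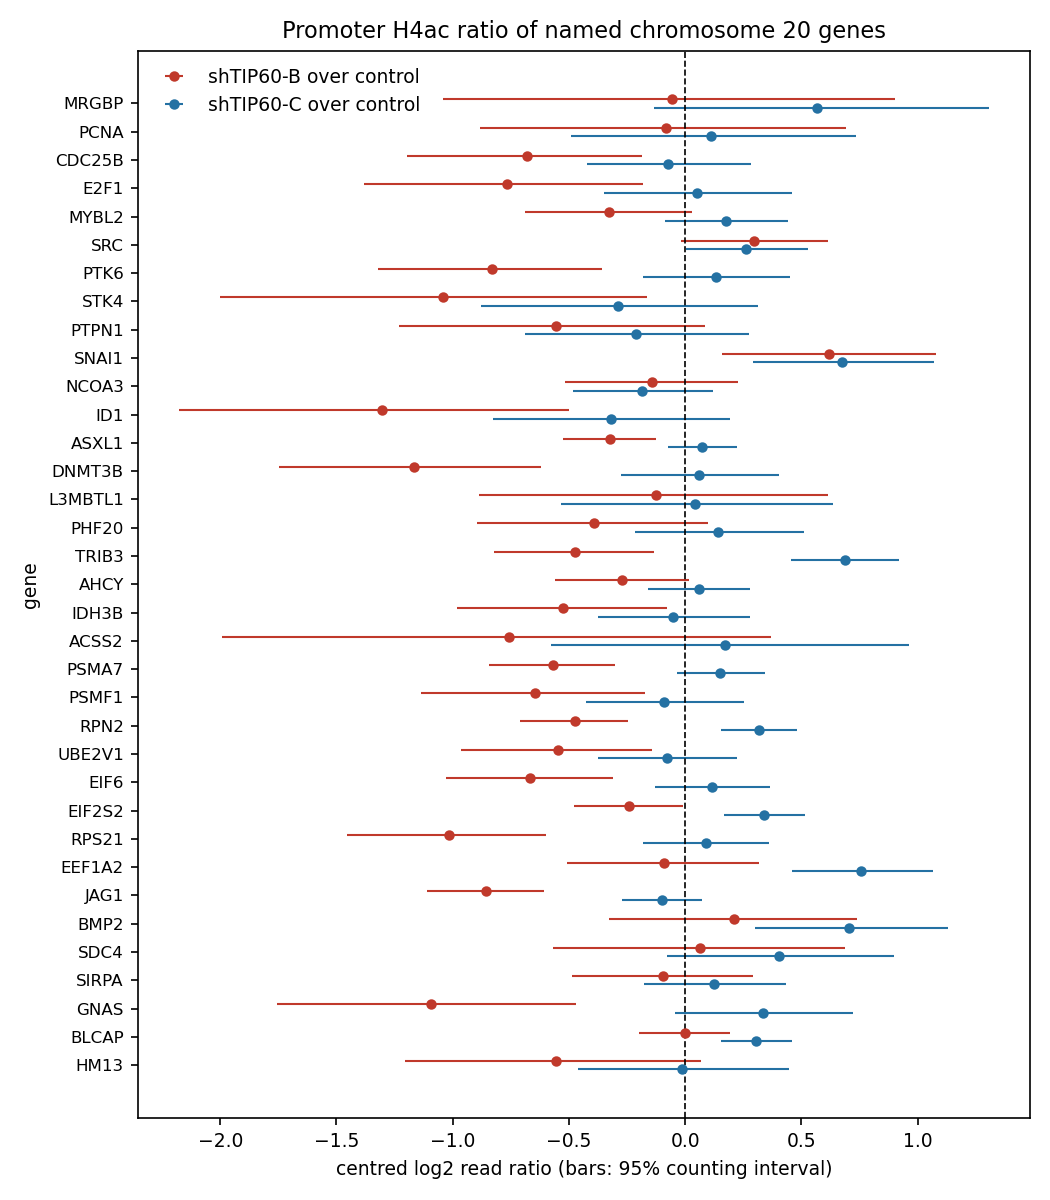
Centred log2 promoter H4ac read ratio (horizontal axis) of genes named from the functional lists (vertical axis), with shTIP60-B in red and shTIP60-C in blue; points are 1 region in 1 library pair and bars are 95% counting intervals. Most red points lie left of 0, from ID1 at -1.30 to SNAI1 at 0.62, and the blue points lie between -0.32 and 0.76.

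MRGBP is the chromosome's gene for a subunit of the TIP60 complex itself. Its promoter region (chr20:61427704-61428134) had 24 control, 17 shTIP60-B and 63 shTIP60-C reads. The shTIP60-B ratio was -0.05 (-1.04 to 0.90) and the shTIP60-C ratio 0.57 (-0.13 to 1.31). Each interval holds the genome's median, so no difference was detectable at this depth.

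Of 15 cell cycle and replication genes 14 had a promoter region, with medians of -0.66 with shTIP60-B and 0.06 with shTIP60-C. With shTIP60-B 13 were negative and with shTIP60-C 6. Of all 331 chromosome 20 promoter regions, 89.1% were negative with shTIP60-B and 39.9% with shTIP60-C. E2F1, which drives S-phase genes, had 81 control, 35 shTIP60-B and 149 shTIP60-C reads, for -0.77 (-1.38 to -0.18) and 0.05. CDC25B, a phosphatase that activates CDK1, had 109, 50 and 184 reads, for -0.68 (-1.19 to -0.19) and -0.07. MYBL2, a late cell cycle factor, had 179, 105 and 359 reads, for -0.33 (-0.69 to 0.03) and 0.18. The departure counted in this list was FAM83D, above with shTIP60-B.

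Of 13 kinase signalling and survival genes 10 had a promoter region, with medians of -0.63 and 0.12. SRC, a tyrosine kinase, had 178 control, 161 shTIP60-B and 379 shTIP60-C reads, for 0.30 (-0.02 to 0.61) and 0.26. PTK6, a related kinase of epithelia, had 128, 53 and 249 reads, for -0.83 (-1.32 to -0.36) and 0.13. STK4 had 42, 15 and 61 reads, for -1.04 (-2.00 to -0.16) and -0.29. SRC was the gene of this list with a positive shTIP60-B ratio. The other 9 were negative, as were 89.1% of all chromosome 20 promoter regions.

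Of 21 transcription factors and coactivators 10 had a promoter region, with medians of -0.69 and 0.06. With shTIP60-B 1 of them was below its neighbourhood, and SNAI1 was above, as given above. ID1, an inhibitor of basic helix-loop-helix factors, had 57 control, 17 shTIP60-B and 81 shTIP60-C reads, for -1.30 (-2.18 to -0.50) and -0.32. The NCOA3 promoter had 153, 102 and 239 reads, for -0.14 (-0.52 to 0.23) and -0.18.

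Of 12 chromatin regulators 9 had a promoter region, with medians of -0.43 and 0.06. With shTIP60-B 9 were negative and with shTIP60-C 2, against 89.1% and 39.9% of all chromosome 20 promoter regions. TAF4 and CHD6 were below their neighbourhood with shTIP60-B. DNMT3B, a DNA methyltransferase, had 113 control, 37 shTIP60-B and 209 shTIP60-C reads, for -1.17 (-1.75 to -0.62) and 0.06. ASXL1, a Polycomb-associated protein, had 565, 332 and 1055 reads, for -0.32 (-0.52 to -0.13) and 0.07.

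Of 17 metabolism and stress genes 12 had a promoter region, with medians of -0.45 and 0.34. TRIB3, a pseudokinase induced by the integrated stress response, had 206 control, 109 shTIP60-B and 588 shTIP60-C reads. Its ratios were -0.48 (-0.82 to -0.13) and 0.69 (0.46 to 0.92), on opposite sides of the genome's median. Relative to its window it lay higher with each hairpin, at departures of 0.11 and 0.58, neither of them 2-fold. The shTIP60-B counting interval held the window median of -0.58. The member counted as above its neighbourhood with shTIP60-B was SLC23A2.

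Of 14 proteostasis and secretory genes 13 had a promoter region, with medians of -0.55 and 0.10. With shTIP60-B 13 were negative, against 89.1% of all chromosome 20 promoter regions. RPN2, of the oligosaccharyltransferase, had 446 control, 236 shTIP60-B and 985 shTIP60-C reads, for -0.48 (-0.71 to -0.24) and 0.32 (0.15 to 0.48). Of 15 translation and RNA processing genes 14 had one, with medians of -0.44 and 0.13. RPS21, a ribosomal protein, had 176, 64 and 332 reads, for -1.02 (-1.45 to -0.60) and 0.09, and EEF1A2, an elongation factor isoform, had 123, 85 and 369 reads, for -0.09 (-0.51 to 0.32) and 0.76 (0.46 to 1.06).

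The smallest groups were mixed. Of 9 BMP, Notch and surface ligand genes 3 had a promoter region: JAG1, given above, BMP2 and SDC4. BMP2, a secreted growth factor, had 67 control, 57 shTIP60-B and 194 shTIP60-C reads, for 0.21 (-0.33 to 0.74) and 0.71 (0.30 to 1.13). Of 8 innate immunity and antiprotease genes 1 had a promoter region, SIRPA, with 138, 95 and 267 reads, for -0.10 (-0.49 to 0.29) and 0.13. Of 5 genes of imprinted loci 4 had one, with medians of -0.34 and 0.17; the GNAS region had 84, 29 and 188 reads, for -1.09 (-1.75 to -0.47) and 0.34.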

How the data were processed

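Crosslinking for 10 min in 1% formaldehyde, shearing to 100 to 1000 bp and paired-end reads of 75 bp are given per the labels' protocols. Per the submitters' processing notes, the tools were Bowtie2 and MACS 1.4.2, on hg19. Each of the 2 deposited tables lists H4ac regions of a knockdown library against the control, with read counts per region as deposited, not normalised, M and A on a log2 scale rescaled by the authors (the table names refer to MAnorm), and a −log10 p-value of the 2 libraries from the deposited identifier. The deposited score per peak and all input reads were not used. HOMER annotation (nearest start site, gene, feature) was taken as deposited.

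Computed here, with Python 3.11.15, numpy 2.4.6, pandas 2.3.3 and scipy 1.17.1, were log2 ratios of counts, with a count of 0 set to 0.5. They were centred on the median of the 36034 control peaks, whose control counts were equal in both tables. Windows were 5 Mb by region midpoint with at least 20 regions. Counting intervals are exact Clopper-Pearson at 95%, and a count of 0 was bounded with a floor of 3 counts. These cover counting error only: the 6 libraries give 1 per group, so no test across samples was made.

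Named were, per hairpin, the 6 regions furthest below and 6 furthest above, those departing the same way with both (up to 8 per direction), the strongest control peak per window, up to 4 genes per list, and MRGBP; other departing promoters and the NFATC2 regions were named after their values were seen. Small and antisense RNAs were left unnamed, and a few of the genes so picked are not given. The members and lists were chosen with earlier results of these data known. Alternatives were other windows, folds, intervals, count minimums, scalings and peak sets.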

Additional observations from a re-analysis of the deposited data

Results flagged for a closer look

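The chromosome 20 median lay on opposite sides of the genome's median with the 2 hairpins, at -0.56 with shTIP60-B and 0.024 with shTIP60-C (centred log2). The difference was not tested, since there is 1 library per group. The shTIP60-C median was -0.04 when ratios were scaled by total reads and -0.08 by the authors' rescaling, so its sign depends on the scaling.

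Flagged were 25 regions that departed with at least 1 hairpin and also between the knockdown libraries. Their departures from the window median had opposite signs with the 2 hairpins, and these differences were not tested either. A gap between the hairpins is built into this rule. The share of all control peaks that meet it was not counted, so nothing is read from the number of regions. Some signs rest on values near 0, such as -0.02 with shTIP60-C at a region nearest to NINL. Of the 25 regions, the 6 that the naming rule picks and that had reads in every library are given here. The region nearest to LINC01271 had -3.39 with shTIP60-B and 0.21 with shTIP60-C. FITM2 had -1.83 and 0.80, and KCNG1 had -0.91 and 1.61. The intronic region of CDS2 had 1.54 and -0.22, that of NCOA3 had 0.70 and -1.15, and JPH2 had 0.35 and -1.65. No region was counted as departing with both hairpins in opposite directions: the count was 0 of 1078.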

How the results depend on the processing

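Of 54 alternative settings over 9 results, 31 gave the same result and 23 moved it. The chromosome 20 median with shTIP60-B was -0.64 scaled by total reads, -0.84 as the authors' M and -0.62 over knockdown peaks; with shTIP60-C it was -0.040 scaled by total reads and -0.081 as the authors' M. Centring within 4 classes by control reads, chosen after seeing the data, gave -0.57 and 0.01. Over common peaks the promoter minus distal difference was -0.20 with shTIP60-B and 0.012 with shTIP60-C.

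Counts of departing regions moved with the rule itself. With a fold of 1.5 shTIP60-B had 109 below and 120 above, and shTIP60-C had 69 and 67. In the same order these counts were 32, 7, 5 and 2 with a fold of 3, and 14, 27, 9 and 4 with the widest counting interval tried. Over common peaks they were 9 and 22 with shTIP60-B and 5 below with shTIP60-C. With at least 20 control reads 3 were above with shTIP60-C. Windows of 2 Mb and 10 Mb kept all 4 counts within 1.5 times; 23 of 30 windows of 2 Mb held at least 20 regions.

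Depth limits single regions, since departing regions had few reads, and the counting intervals hold no difference between cultures or immunoprecipitations. No paired analysis was possible because each group has 1 library. The cause of these shifts was not tested.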
